A study of Homo sapiens with 2 samples.

Results

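Serine synthesis and folate one-carbon metabolism were described through 8 enzyme genes, PHGDH, PSAT1, PSPH, SHMT1, SHMT2, MTHFD1, MTHFD2 and MTHFD1L, in 2 untreated human diffuse large B cell lymphoma lines, SUDHL6 and HT. The genes were chosen by name from the pathway, with earlier results of these data known. A gene took the probe set that the platform annotation assigned to it alone, or the brightest where it had several. By this rule 6 of the 8 genes had a value, out of 14232 genes with 1 value. PSPH was named only by a probe set shared with NUPR2, and MTHFD1L was not listed in the annotation. Both lines are established cell lines grown in the same serum-supplemented RPMI medium, and the series title places the profiles within work on an inhibitor of the PRC2 chromatin complex, which neither culture had received. Total RNA of each line was measured on 1 Affymetrix exon array, with values deposited on the log2 scale after RMA, a procedure that corrects background, normalizes arrays and summarises probes. With 1 array per line no spread between cultures could be estimated, so no test was made and no p-value or standard error exists for any difference below.

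Cells make serine from a glycolytic intermediate in consecutive steps carried out by PHGDH, PSAT1 and PSPH. Serine hydroxymethyltransferases, SHMT1 in the cytosol and SHMT2 in mitochondria, then pass a carbon unit of serine to folate and release glycine. MTHFD enzymes interconvert the folate-bound units, which are spent on purines, thymidylate and methionine, and dividing lymphoid cells draw on this supply for nucleotide synthesis.

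A dim level was set in each line as the 95th percentile of 225 olfactory receptor genes, assumed here to be off in lymphoma cells. It lay at 3.81 in SUDHL6 and 4.11 in HT. Differences are SUDHL6 minus HT on the log2 scale. To be counted as different, a gene needed a difference of at least 1 in either direction and a value at or above the dim level in the line where it was higher. Each difference was turned into a fold by raising 2 to its power. Where the lower value was dim, the dim level took its place and the fold is given as "at least". The median difference of all 14232 genes was -0.04. B cell markers were present in both lines, and all 7 measured members of that list reached the dim level. Among them MS4A1 was counted as higher in SUDHL6 (11.33 in SUDHL6 and 8.75 in HT) and EBF1 as higher in HT (6.54 in SUDHL6 and 8.18 in HT). Of 6 T cell genes, CD3D, CD3E, CD3G and CD2 were dim in both lines, CD5 just reached the dim level in SUDHL6 (3.84 in SUDHL6 and 3.77 in HT), and CD7 was above it in both (5.49 in SUDHL6 and 5.73 in HT). Of 4 measured myeloid genes, CD14, LYZ and CSF1R were dim in both lines and CD68 was above the dim level in both (5.53 in SUDHL6 and 5.95 in HT).

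PHGDH and SHMT2 were higher in SUDHL6, and the other 4 measured enzymes differed by less than 1. Thus 2 of 6 enzymes were counted as higher in SUDHL6 and 0 as higher in HT. Among the 9405 genes that reached the dim level, 12.3% were counted in either direction, 5.30% as higher in SUDHL6 and 6.99% as higher in HT. All 6 enzymes were above the dim level in both lines. Their differences ran from -0.43 to 1.57 with a median of 0.31, and 4 had the higher value in SUDHL6 and 2 in HT. The 6 genes lie on 6 different chromosomes.

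**Figure D1:**
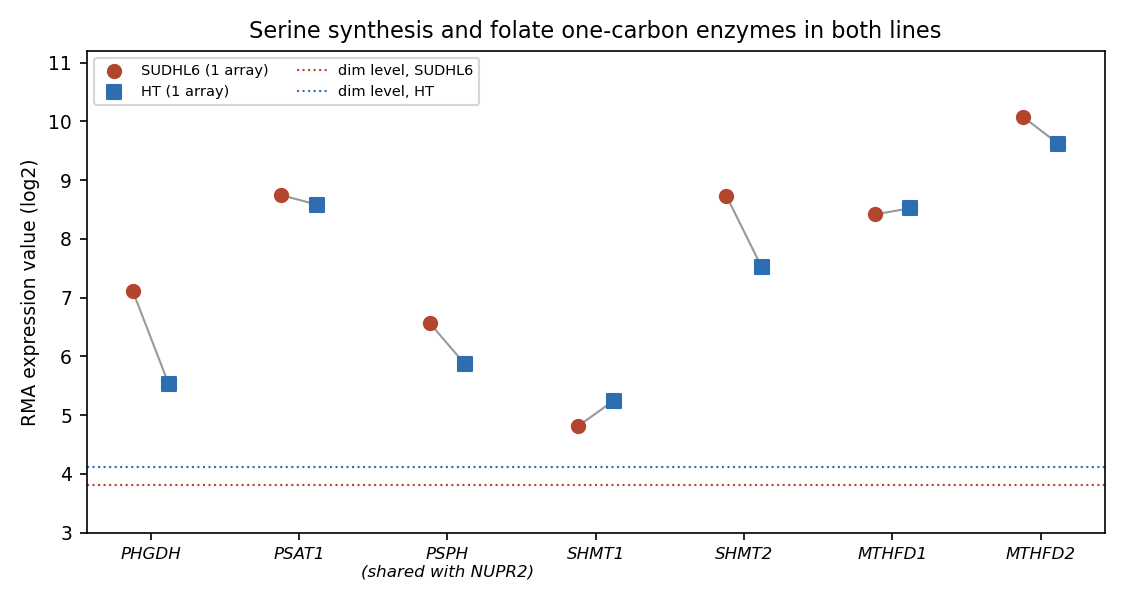
RMA expression values (log2, vertical axis) of the serine synthesis and folate enzymes in SUDHL6 (circles) and HT (squares), 1 array each, with grey lines joining the values of a probe set and dotted lines at the dim level of each line. PHGDH (7.10 in SUDHL6 and 5.54 in HT) and SHMT2 (8.74 and 7.51) show the steepest lines. PSPH is shown from a probe set that it shares with NUPR2, and heights of different genes are not comparable.

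In the serine synthesis branch, PHGDH, the dehydrogenase that commits the glycolytic intermediate to serine, had a value of 7.10 in SUDHL6 and 5.54 in HT. The difference of 1.57 corresponds to a 2.96-fold higher value in SUDHL6. PSAT1, the aminotransferase of the next step, stood at 8.74 in SUDHL6 and 8.58 in HT, which differ by 0.16 or 1.12-fold. Neighbouring steps of the same branch thus had unequal differences, 1.41 apart on the log2 scale. PSPH, the phosphatase of the last step, had no probe set of its own. The probe set it shares with NUPR2 stood at 6.57 in SUDHL6 and 5.86 in HT, which differ by 0.71. That value cannot be assigned to either gene, and it was left out of the counts above.

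Promoter sequences are shown for PHGDH, which had the largest difference of the 6 enzymes, for PSAT1, the following step with nearly equal values, and for ASNS, an amino acid synthesis gene known to be regulated by the transcription factor ATF4, as are PHGDH and PSAT1. Each is the 250 bases before the gene's start in RefSeq on GRCh38.p14, read along the gene's own strand. The lines give chr1:119711684-119711933 on the plus strand for PHGDH, chr9:78296875-78297124 on the plus strand for PSAT1 and chr7:97872409-97872658 on the minus strand for ASNS. Capitals mark a match to TGATGNAA, a form of the element that ATF4 binds together with C/EBP proteins.
PHGDH: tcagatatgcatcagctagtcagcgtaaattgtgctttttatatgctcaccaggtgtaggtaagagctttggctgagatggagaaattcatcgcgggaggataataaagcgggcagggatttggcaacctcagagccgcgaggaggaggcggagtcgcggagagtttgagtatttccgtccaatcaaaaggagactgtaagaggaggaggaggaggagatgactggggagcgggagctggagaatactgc
PSAT1: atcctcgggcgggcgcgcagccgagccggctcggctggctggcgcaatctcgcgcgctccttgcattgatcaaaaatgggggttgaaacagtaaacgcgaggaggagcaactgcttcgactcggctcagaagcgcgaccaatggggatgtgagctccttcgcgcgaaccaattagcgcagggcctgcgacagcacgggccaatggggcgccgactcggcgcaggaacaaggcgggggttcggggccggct
ASNS: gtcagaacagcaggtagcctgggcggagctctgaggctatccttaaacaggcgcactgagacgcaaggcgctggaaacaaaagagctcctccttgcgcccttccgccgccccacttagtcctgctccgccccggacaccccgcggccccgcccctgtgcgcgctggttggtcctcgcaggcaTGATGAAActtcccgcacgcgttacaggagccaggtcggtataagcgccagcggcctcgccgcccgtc
Searched on both strands, TGATGNAA was present once in the ASNS window, at positions -68 to -61 relative to the start, and had no match in those of PHGDH and PSAT1. It occurred in 3.19% of 27305 windows of the same length. CACGTG, the E-box letters that MYC proteins bind, which read the same on both strands, had no match in these 3 windows and occurred in 6.49% of all windows. Among the other enzyme genes with a window, MTHFD1 held CACGTG at positions -15 to -10, MTHFD1L held TGATGNAA at -129 to -122 and CACGTG at -154 to -149, and SHMT1 and MTHFD2 had no match to either. SHMT2, which was counted as higher in SUDHL6, and PSPH had no window and were not searched. Of 3 further genes searched, PPAT, a purine synthesis gene, held CACGTG at -182 to -177. The purine synthesis gene PAICS and the transsulfuration gene CTH had no match to either motif. The motifs do not overlap each other in letters. G and C made up 51.2% of the PHGDH window, 65.6% of the PSAT1 window and 66% of the ASNS window.

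Among the folate enzymes, the mitochondrial hydroxymethyltransferase gene SHMT2 had a value of 8.74 in SUDHL6 and 7.51 in HT, 2.34-fold higher in SUDHL6 with a difference of 1.22. Its cytosolic counterpart SHMT1 stood at 4.81 in SUDHL6 and 5.24 in HT. Its difference was -0.43, or 1.35-fold higher in HT. The differences of this isozyme pair had opposite signs and lay 1.66 apart. SHMT1 was close to the dim level, 1.00 above it in SUDHL6 and 1.13 above it in HT, and RMA is known to compress differences between dim genes.

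MTHFD2, the mitochondrial dehydrogenase and cyclohydrolase, stood at 10.08 in SUDHL6 and 9.61 in HT, which differ by 0.46 or 1.38-fold. MTHFD1, the cytosolic enzyme that combines dehydrogenase, cyclohydrolase and synthetase activities, stood at 8.41 in SUDHL6 and 8.52 in HT. Its difference of -0.11 became 0.02 after quantile normalization. Both mitochondrial enzymes thus had the higher value in SUDHL6. Averaged over SHMT2 and MTHFD2 the difference was 0.84, against -0.27 over the cytosolic enzymes SHMT1 and MTHFD1. The contrast between compartments was 1.11, a description of 4 probe sets on 2 arrays, and most of it came from the SHMT pair. For the MTHFD2 and MTHFD1 pair the gap was 0.57. MTHFD1L, the mitochondrial synthetase that releases formate, was not measured by the rule used here. Pseudogenes carrying the name of the gene are listed in RefSeq for PSAT1, SHMT1, MTHFD1 and MTHFD2 among the measured enzymes, 7 of them for MTHFD2, and for PSPH. Values of these genes are uncertain to the extent that probes match such copies, which was not tested.

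As no replicate error was available, each difference was set beside the differences of all genes with a mean value within 0.5 of the enzyme's own. For PHGDH, 31 of 1540 such genes (2.01%) were at least as far above HT in SUDHL6, and 4.87% differed at least as much in either direction. For SHMT2 the corresponding shares were 2.71% of 884 genes (24 genes) and 7.35%. MTHFD2 was matched or exceeded in its own direction by 10.5% of 181 genes, PSAT1 by 25.6% of 586 genes, SHMT1 by 16.1% of 2862 genes and MTHFD1 by 58.4% of 680 genes. Genes of like level had medians between -0.22 and -0.02, so that at these levels values tended to be slightly lower in SUDHL6 than in HT. These shares describe how the 2 lines differ across genes and are not rates of measurement error.

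**Figure D2:**
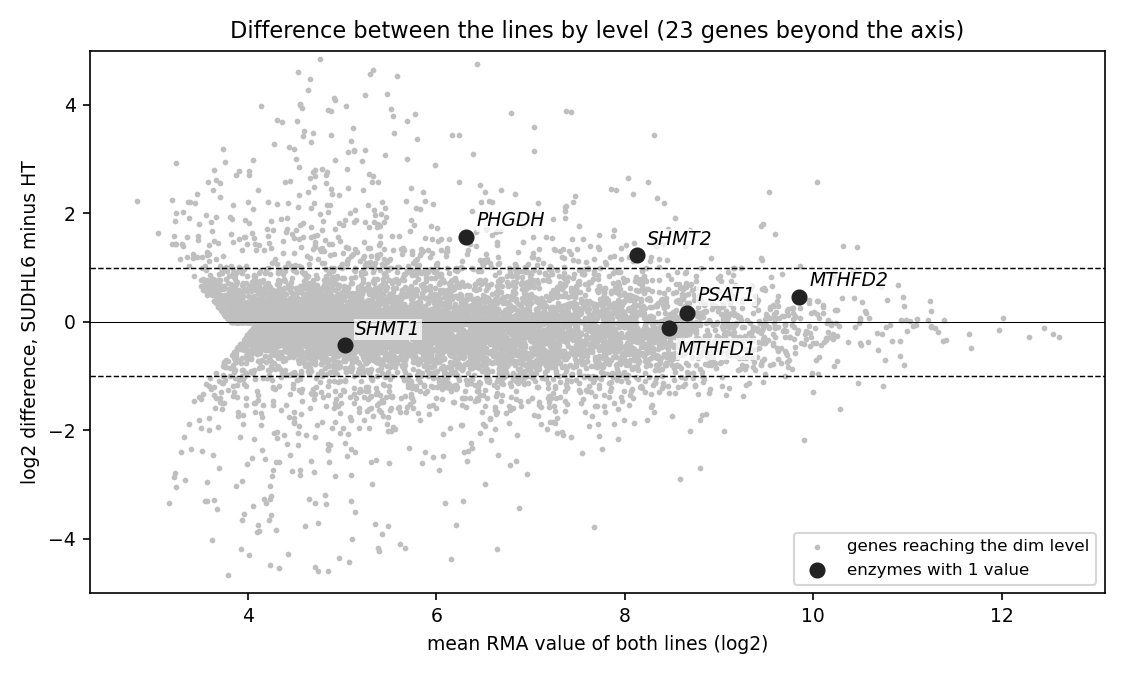
Log2 difference, SUDHL6 minus HT (vertical axis), against the mean RMA value of both lines (horizontal axis, log2) for the genes that reached the dim level (grey) and the 6 measured enzymes (black). Dashed lines mark a difference of 1 in either direction, and 23 genes lie beyond 5. PHGDH (1.57) and SHMT2 (1.22) lie above the upper dashed line, and the other 4 enzymes lie between the dashed lines.

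Each enzyme gene was set beside the measured genes that adjoin it in gene order. The 3 nearest on either side were taken from the RefSeq gene order, 36 genes in all. Of these, 26 reached the dim level and 6 were counted as different, against 12.3% of all genes that reached it. No limit was set on distance, so a neighbour in gene order can lie far from its enzyme gene. Around PHGDH on chromosome 1, the 6 neighbours ran from -0.75 to 0.29 with a median of -0.02, but only ZNF697 and RNF115 reached the dim level, at 0.02 and -0.06. PHGDH was therefore 1.59 above the median of its neighbours. Around SHMT2 on chromosome 12, the neighbours had a median of 0.16 and differed in both directions. R3HDM2 was 2.17-fold higher in SUDHL6 (6.84 in SUDHL6 and 5.72 in HT), while INHBC, an inhibin subunit gene, was at least 2.01-fold higher in HT (3.39 in SUDHL6 and 4.82 in HT). SHMT2 lay 1.07 above the median of its neighbours.

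Next to PSAT1, the transcriptional corepressor gene TLE4 was 3.47-fold higher in HT, at 5.67 in SUDHL6 and 7.47 in HT, and the neighbours as a group had a median of -0.12. The SHMT1 neighbours had a median of -0.15 and stayed between -0.33 and 0.21. For MTHFD1 the median was 0.47, with SYNE2, which encodes a nuclear envelope protein, 2.68-fold higher in SUDHL6 (8.72 in SUDHL6 and 7.30 in HT) and AKAP5, an anchoring protein gene, at 4.01 in SUDHL6 and 2.82 in HT. MTHFD1 itself was 0.57 below that median, although with 5 neighbours on each side the median was -0.02. AKAP5 was dim in HT, and its SUDHL6 value lay under the HT dim level of 4.11, so no fold is given for it. The MTHFD2 neighbours had a median of 0.11, among them DGUOK, a mitochondrial deoxyguanosine kinase gene, 2.13-fold higher in SUDHL6 (7.68 in SUDHL6 and 6.59 in HT). Copy number was not measured in these data, and its part in the differences was not tested.

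**Figure D3:**
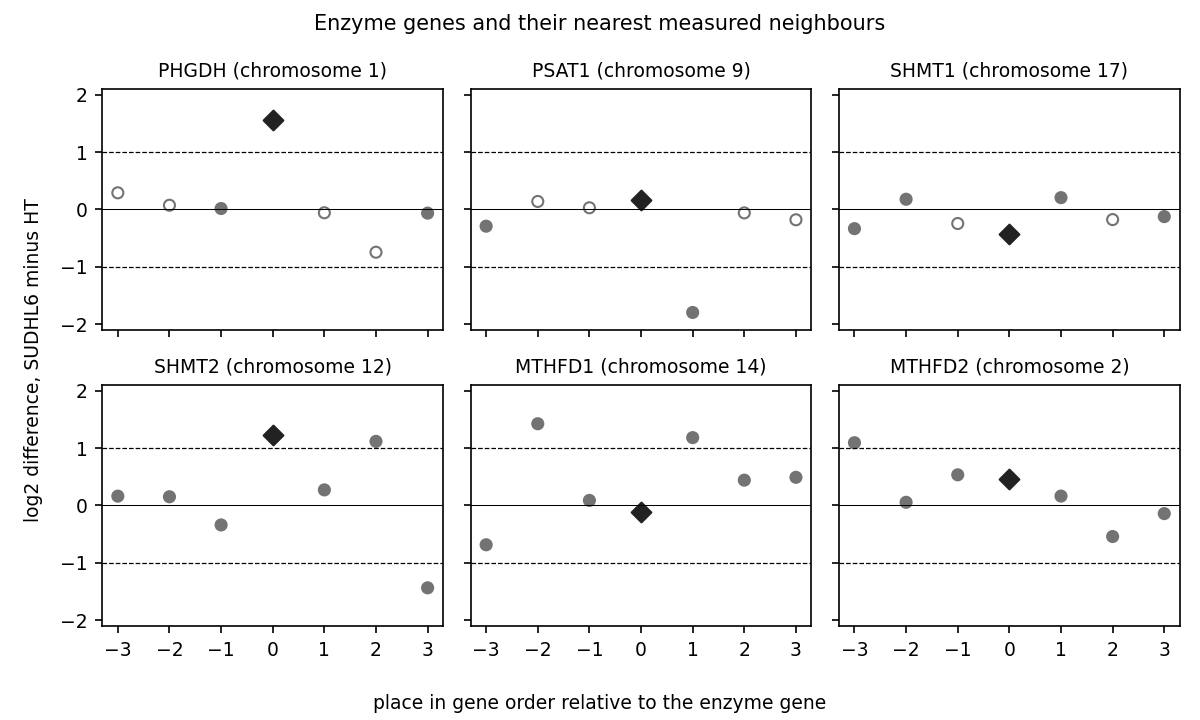
Log2 difference, SUDHL6 minus HT (vertical axis), of each enzyme gene (black diamond, place 0) and of its 3 nearest measured genes on either side in gene order (horizontal axis). Filled grey points reached the dim level, open points did not, and dashed lines mark a difference of 1. PHGDH at 1.57 stands above all 6 of its neighbours, but only 2 of them, ZNF697 at 0.02 and RNF115 at -0.06, reached the dim level. All 6 neighbours of SHMT2 (1.22) reached it, among them R3HDM2 at 1.12.

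Carriers that bring serine and glycine into the cell or into mitochondria had 0 of 8 measured members counted as different and a median of 0.20. SLC1A4, a neutral amino acid transporter that carries serine, stood at 6.40 in SUDHL6 and 5.68 in HT, which differ by 0.72. SLC1A5, its relative best known for glutamine uptake, stood at 6.20 in SUDHL6 and 5.53 in HT, but a dimmer probe set of the same gene went the other way, at 5.47 in SUDHL6 and 5.91 in HT. SFXN1, the mitochondrial serine transporter, differed by 0.30 and its relatives SFXN2 and SFXN3 by -0.65 and 0.25. The amino acid transporter genes SLC38A1 and SLC38A2 differed by 0.06 and 0.15, and the glycine transporter gene SLC6A9 by -0.01. The list of enzymes that use serine elsewhere had 5 measured members, 0 counted as different and a median of 0.14. PTDSS1, which makes phosphatidylserine, stood at 8.73 in SUDHL6 and 8.59 in HT, and SPTLC2, a subunit of the enzyme that starts sphingolipid synthesis, at 7.56 in SUDHL6 and 8.10 in HT.

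Other folate genes had 1 of 9 measured members counted as higher in HT, against 6.99% of all genes that reached the dim level. MTFMT, which puts the formyl group of folate onto the initiator methionine tRNA of mitochondria, had a value of 6.38 in SUDHL6 and 7.47 in HT, 2.13-fold higher in HT with a difference of -1.09. This difference was -0.99 after quantile normalization, which is under the threshold. The other 8 measured members of the list were under 1, and the median was -0.01. TYMS, the thymidylate synthase that consumes methylene-folate, stood at 9.52 in SUDHL6 and 9.30 in HT. MTHFS, which returns formyl-folate to the active pool, stood at 6.69 in SUDHL6 and 7.33 in HT, and GGH, a hydrolase that trims glutamates from folates, at 7.74 in SUDHL6 and 8.18 in HT. FPGS, which adds those glutamates, differed by -0.01, FTCD by -0.10 and ALDH1L1, a cytosolic formyl-folate dehydrogenase, by 0. MTHFD2L, a mitochondrial relative of MTHFD2, differed by 0.06 with values near the dim level.

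Of the glycine cleavage system, GLDC, its decarboxylase, was dim in both lines, at 3.03 in SUDHL6 and 2.73 in HT. DLD, a dehydrogenase subunit that also serves other mitochondrial complexes, had values of 9.74 in SUDHL6 and 9.64 in HT. SLC19A1, the reduced folate carrier, stood at 5.32 in SUDHL6 and 5.06 in HT, and the folate receptor gene FOLR1 was dim in both lines. Neither of these short lists had a counted member. Methionine cycle and transsulfuration genes likewise had 0 of 9 members counted, with a median of -0.03. MAT2A, which makes the methyl donor S-adenosylmethionine, stood at 10.17 in SUDHL6 and 10.20 in HT, and MTRR, which reactivates methionine synthase, at 7.69 in SUDHL6 and 7.93 in HT. CTH, which forms cysteine in the transsulfuration branch, was just under the threshold, at 6.72 in SUDHL6 and 5.75 in HT.

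Purine synthesis, which spends formyl-folate, had 3 of 11 measured enzymes counted as higher in HT, against 6.99% of all genes that reached the dim level, and 0 as higher in SUDHL6. The other 8 were under 1, and the list median was -0.24. Of the 11 genes, 9 had the higher value in HT and 2 in SUDHL6. Genes of like level to the serine and folate enzymes had medians of -0.22 to -0.02, but genes of like level to the purine enzymes were not examined. PAICS stood at 5.98 in SUDHL6 and 7.30 in HT, 2.50-fold higher in HT. PPAT, the amidotransferase that opens the pathway and whose gene adjoins PAICS, stood at 6.63 in SUDHL6 and 7.69 in HT, 2.08-fold higher in HT, and ADSL, adenylosuccinate lyase, at 7.19 in SUDHL6 and 8.20 in HT, 2.02-fold higher in HT. After quantile normalization PPAT and ADSL were at -0.95 and -0.89, so that PAICS remained as the only counted gene. The formyl-folate users GART and ATIC differed by -0.24 and -0.29.

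Genes for thymidine nucleotide supply outside the folate cycle had 2 of 5 measured members counted as higher in SUDHL6, and the median was 0.42. Over all genes that reached the dim level the share was 5.30%. The other 3 members were under 1, with DUT at -0.44. DCTD, the deaminase that turns dCMP into the substrate of thymidylate synthase, stood at 6.79 in SUDHL6 and 4.56 in HT, 4.68-fold higher in SUDHL6. RRM2, a ribonucleotide reductase subunit, had values of 11.02 in SUDHL6 and 9.62 in HT, 2.62-fold higher in SUDHL6. Proliferation genes, which were followed beside the enzymes, had 1 of 7 measured members counted as higher in SUDHL6, beside the same share of 5.30%. It was MCM3, a replication helicase subunit, at 8.65 in SUDHL6 and 7.52 in HT. Their median was 0.18, with MKI67 at 9.81 in SUDHL6 and 9.43 in HT. The part of growth rate in the enzyme differences was not tested.

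**Figure D4:**
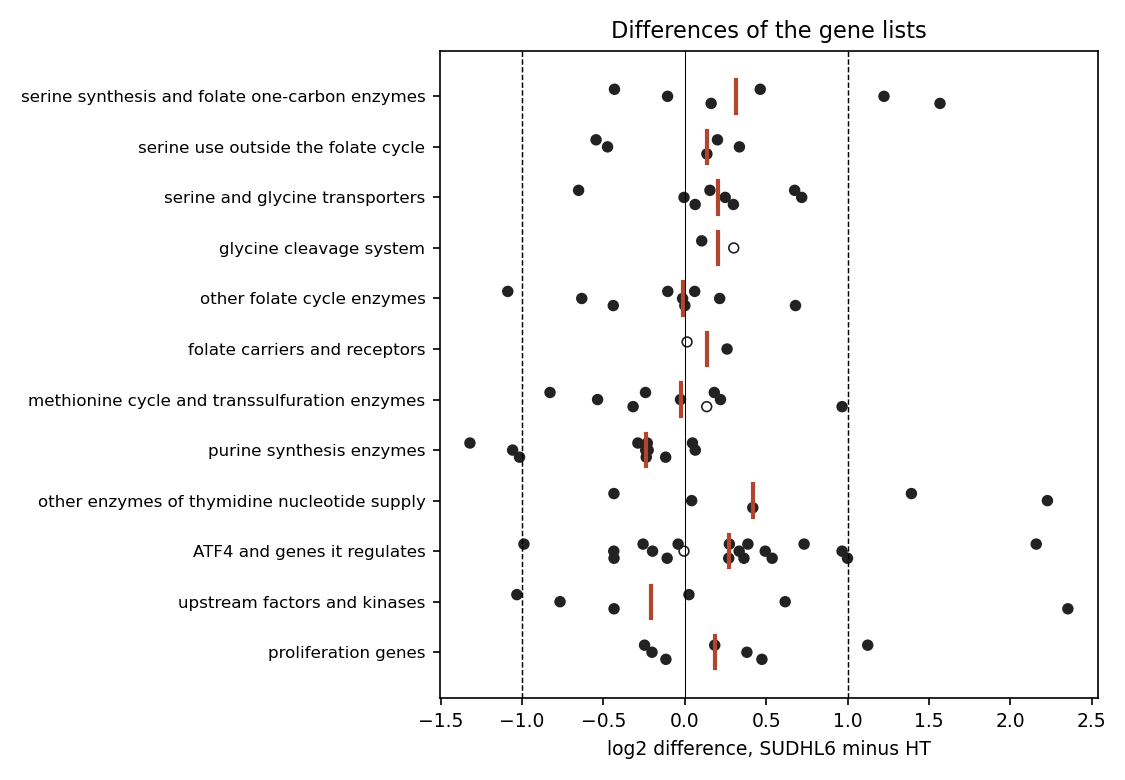
Log2 difference, SUDHL6 minus HT (horizontal axis), of every measured gene in the enzyme list and in 11 related gene lists (rows). Filled points reached the dim level, open points did not, red bars are list medians and dashed lines mark a difference of 1. The enzyme list has a median of 0.31 with PHGDH and SHMT2 beyond the right dashed line, and the purine synthesis list has a median of -0.24 with PAICS, PPAT and ADSL beyond the left one.

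Of 6 measured upstream factors and kinases of serine and folate genes, 1 was counted as higher in SUDHL6 and 1 as higher in HT. The shares over all genes that reached the dim level were 5.30% and 6.99%. Both counted genes encode kinases, and no transcription factor of the list was counted. ATF4, the amino acid stress factor known to act on PHGDH, PSAT1, SHMT2 and MTHFD2, stood at 5.60 in SUDHL6 and 6.04 in HT. Its difference was thus -0.44. MYC, also known to act on this pathway, stood at 7.62 in SUDHL6 and 7.01 in HT, which differ by 0.62. Its relative MYCN went the other way, at 5.50 in SUDHL6 and 6.27 in HT. A second probe set of MYCN alone was dim in both lines, at 3.31 in SUDHL6 and 3.28 in HT, and did not show this difference. EIF2AK3, which encodes the kinase PERK of the endoplasmic reticulum upstream of ATF4, was 5.11-fold higher in SUDHL6, at 8.01 in SUDHL6 and 5.66 in HT. EIF2AK4, which encodes the amino acid sensing kinase GCN2, was 2.05-fold higher in HT, at 4.79 in SUDHL6 and 5.82 in HT, but at -0.98 after quantile normalization. The list of upstream factors and kinases had a median of -0.20 over 6 measured genes, which turned to 0.09 when probe sets naming several genes were included.

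Further genes that ATF4 is known to regulate, with ATF4 itself in the list, had 1 of 19 measured members counted as higher in SUDHL6. That is close to the 5.30% of all genes that reached the dim level. In this list 0 were counted as higher in HT, and the median was 0.27. The counted gene was VLDLR, a lipoprotein receptor gene, which was at least 1.75-fold higher in SUDHL6, with values of 4.92 in SUDHL6 and 2.76 in HT. ASNS, asparagine synthetase, whose promoter is printed above, stood at 9.73 in SUDHL6 and 8.73 in HT, and its difference of 0.999 was just under the threshold. After quantile normalization ASNS was at 1.06 and CTH at 1.07, and 3 members of the list were then counted as higher in SUDHL6. The cystine transporter gene SLC7A11 went the other way, at 6.93 in SUDHL6 and 7.92 in HT. The stress factor gene DDIT3 stood at 4.33 in SUDHL6 and 4.44 in HT, and 11 of the 19 genes had the higher value in SUDHL6 and 8 in HT.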

How the data were processed

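The authors deposited log2 expression values of 22011 probe sets for 2 arrays. Per the submitters' processing notes, RMA and Affymetrix Expression Console were used. No version or setting is given there, and the genome build was not given in the sources used here. Depth has no meaning for arrays, and their number, 1 per line, limits the precision. GEO's platform annotation listed 16840 probe sets, 14432 with 1 gene and 2408 with several, and left 5171 unnamed. Symbols were updated by gene number to RefSeq (GRCh38.p14), which matched 14404 of the 14432. Each gene took its brightest own probe set. Named genes were all 8 enzymes, all measured glycine cleavage, folate and serine carrier genes, ATF4 and MYC. From other lists came up to 4 counted genes, or the 2 brightest, and neighbours were named where counted. A further gene that this rule names is not reported here. GART, ATIC, MKI67, ASNS, CTH, SLC7A11, DDIT3, MYCN, ZNF697, RNF115 and marker genes were named after their values were seen. The enzymes and lists were chosen with earlier results of these data known. Quantile and loess (span 0.4) alternatives and all counts used Python 3.11.15, pandas 2.3.3 and statsmodels 0.14.6, and the counting rule was tested on simulated data.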

Additional observations from a re-analysis of the deposited data

How the results depend on the processing

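The 6 enzyme differences kept their sign under the 5 alternatives that recompute them (quantile and loess normalization, the mean of a gene's own probe sets, probe sets naming several genes, and values raised to the dim level), except MTHFD1, which ran from -0.11 to 0.02, with its positive value after quantile normalization. PHGDH ran from 1.57 to 1.68, SHMT2 from 1.22 to 1.33, the median of the enzymes from 0.31 to 0.46 and the contrast of compartments from 1.09 to 1.12. PHGDH and SHMT2 made up the count of 2 under these settings, with a dim level at the 99th percentile or none, and at a threshold of 0.5. At a threshold of 2 the count was 0, and 167 of all genes were counted as higher in SUDHL6 and 154 in HT, against 1233 and 1835 at a threshold of 0.5. After quantile and after loess normalization alike, the count higher in HT became 0 for other folate enzymes, 1 for purine synthesis and 0 for upstream factors and kinases, and the count higher in SUDHL6 became 1 for the methionine cycle list (CTH) and 3 for the ATF4 list. The cause of these changes was not tested. Over all genes, 498 were counted as higher in SUDHL6 and 657 in HT, against 576 and 568 after quantile normalization. Raising values to the dim level left 0 counted in the ATF4 list, since VLDLR in HT was dim. With probe sets naming several genes, the median of the serine use list became -0.47, because SRR then took a probe set shared with TSR1. The same setting turned the medians of folate carriers (-0.29), the methionine cycle list (0.13) and upstream factors and kinases (0.09). Raising values turned those of glycine cleavage (-0.10) and folate carriers (-0.02), and loess those of other folate enzymes (0.0020) and the methionine cycle list (0.0052). The dim levels raised to are unequal, 3.81 in SUDHL6 and 4.11 in HT, and the median over all genes became -0.30. GLDC and FOLR1, dim in both lines, took the gap between those levels, so these turns towards HT follow from the setting. No paired analysis was possible because each line has 1 array, and no replicate could be left out for the same reason.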
